A study of Mus musculus with 4 samples.

Results

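First-intron open regions are stretches of accessible chromatin that lie inside the first intron of a protein-coding gene and away from its start. Overlapping regions of the 4 deposited peak lists on chromosomes 1 to 19 and X (at least 1 bp of overlap) were merged into 100991 regions, of which 68680 held a region from every list and are called shared. A shared region was a member when its midpoint lay in intron 1 of the longest protein-coding transcript of a gene in GENCODE release M21 and over 1 kb from every annotated transcription start site (TSS). The rule found 7646 members, or 11.1% of the shared regions, and the same rule for all other introns found 16875, or 24.6%. A further 4363 shared regions lay in first introns but within 1 kb of a TSS and were left out.

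The lists come from ATAC-seq, in which a transposase cuts and tags DNA that is not packed into nucleosomes, of mouse T-helper 17 (Th17) primary cells of strain C57BL/6NJ. There is 1 group of 4 biological replicates with no treatment label, sex not collected and age unknown. All 4 carry the same donor identifier, and nothing says that they came from separate animals or cultures, so every p measures only the spread between these samples, which may be technical. Replicates 1 and 2 have KS134 in their peak names and the other pair KS136, beside the words 72hrs and ASTARR.insert, none of which is explained. The lists held 83886 to 85272 regions per replicate on the chromosomes used, and since they hold no counts the sequencing depth is unknown. Of the genes that define Th17 cells, Il17a, Il17f and Il23r had a region within 1 kb of a TSS in 4 of 4 replicates, while Il22 had none in any. Such a region is common: 3110 of 3454 genes with a member had one in all 4, as did 6587 of 10763 other genes with first-intron sequence over 1 kb from a TSS. It does not by itself mark the cells as Th17.

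Introns are removed from the transcript by splicing, and their DNA can hold enhancers and silencers, which are bound by transcription factors and raise or lower transcription from a promoter. The first intron starts a short way downstream of the promoter, is on average the longest of a gene, and is a frequent home of such elements. In T cells the first intron of Cd4, which encodes the coreceptor of helper T cells, holds a silencer, and the first intron of Foxp3, the master regulator of regulatory T (Treg) cells, holds conserved non-coding elements. Whether any region described here is one of these known elements was not tested.

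The sequences under 7 of these regions are shown because their host genes encode T-cell surface receptors or transcription factors, and 2 more because they are the strongest members with an AP-1 or a CTCF match in all 4 replicates. The first 7 come from a list of 10 genes that also held Il23r, Batf and Ahr, which had no member, and the last 2 were chosen after their values had been seen. Each is 200 bases of the GRCm38.p6 (mm10) plus strand centred on the mean summit of the strongest member of that gene, the summit being the point of highest signal. Capitals mark matches, on either strand, to the strings described further on, here over the whole 200 bases.
Cd4, chr6:124885273-124885472: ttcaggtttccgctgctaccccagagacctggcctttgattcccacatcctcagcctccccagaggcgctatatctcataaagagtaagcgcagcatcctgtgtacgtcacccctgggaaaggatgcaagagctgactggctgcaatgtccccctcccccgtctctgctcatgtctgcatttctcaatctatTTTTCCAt
Foxp3, chrX:7581778-7581977: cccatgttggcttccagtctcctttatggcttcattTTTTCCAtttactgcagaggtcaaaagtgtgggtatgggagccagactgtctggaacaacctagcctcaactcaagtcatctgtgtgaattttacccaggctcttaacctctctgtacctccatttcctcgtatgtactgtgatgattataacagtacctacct
Il2ra, chr2:11645315-11645514: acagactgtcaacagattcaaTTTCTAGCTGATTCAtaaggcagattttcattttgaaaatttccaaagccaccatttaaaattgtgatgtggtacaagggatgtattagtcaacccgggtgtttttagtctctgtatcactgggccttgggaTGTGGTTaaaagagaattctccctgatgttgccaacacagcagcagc
Rora, chr9:69065950-69066149: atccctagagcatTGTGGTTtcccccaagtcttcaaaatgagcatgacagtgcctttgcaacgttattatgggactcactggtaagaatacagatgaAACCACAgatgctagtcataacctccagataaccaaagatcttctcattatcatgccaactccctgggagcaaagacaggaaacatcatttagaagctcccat
Stat3, chr11:100921393-100921592: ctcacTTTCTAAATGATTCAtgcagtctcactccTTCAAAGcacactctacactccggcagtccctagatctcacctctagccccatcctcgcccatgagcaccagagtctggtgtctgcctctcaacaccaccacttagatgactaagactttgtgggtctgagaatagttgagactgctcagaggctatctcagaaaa
Bcl11b, chr12:107993497-107993696: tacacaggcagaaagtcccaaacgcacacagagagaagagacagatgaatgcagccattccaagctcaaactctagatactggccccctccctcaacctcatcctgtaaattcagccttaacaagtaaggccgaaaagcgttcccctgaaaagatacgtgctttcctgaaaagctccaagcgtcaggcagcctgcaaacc
Ets1, chr9:32709946-32710145: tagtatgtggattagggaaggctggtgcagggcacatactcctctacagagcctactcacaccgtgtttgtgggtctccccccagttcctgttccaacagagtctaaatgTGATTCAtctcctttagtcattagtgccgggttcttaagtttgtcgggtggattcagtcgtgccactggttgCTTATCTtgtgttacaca
4930562C15Rik, chr16:4837707-4837906: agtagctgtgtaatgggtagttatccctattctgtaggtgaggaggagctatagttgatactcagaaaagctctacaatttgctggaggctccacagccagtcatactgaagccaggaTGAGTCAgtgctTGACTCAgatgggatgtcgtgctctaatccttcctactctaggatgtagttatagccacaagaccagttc
Rab11fip3, chr17:26041171-26041370: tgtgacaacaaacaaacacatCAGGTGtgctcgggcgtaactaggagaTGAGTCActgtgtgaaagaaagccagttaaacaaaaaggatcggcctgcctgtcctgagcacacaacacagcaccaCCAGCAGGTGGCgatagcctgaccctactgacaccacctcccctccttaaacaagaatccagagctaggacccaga
The Cd4 and Foxp3 windows each held 1 match to the NFAT string, read on the minus strand. The Il2ra and Stat3 windows each held an AP-1 match that was part of an AP-1/IRF composite, with a RUNX match beside it in Il2ra and a TCF/LEF match in Stat3. The Rora window held 2 RUNX matches on opposite strands, Ets1 an AP-1 and a GATA match, and Bcl11b none. The window in 4930562C15Rik, a gene model without a name, held 2 AP-1 matches 5 bases apart. In Rab11fip3, which encodes an effector of Rab11 GTPases, 1 of the 2 E-box matches lay inside the CTCF match. A match is a description of letters and not evidence of binding.

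First introns held more open regions per base than later introns. Density was counted for each replicate as the number of its own region midpoints per Mb of intron sequence over 1 kb from any TSS, of which first introns had 204 Mb and later introns 599 Mb. In first introns the 4 replicates had 47.0, 47.8, 47.1 and 47.0 regions per Mb. In later introns they had 36.3, 37.0, 36.9 and 36.2. The classes did not overlap: the mean was 47.2 ± 0.369 per Mb (SD, n = 4) against 36.6 ± 0.401, a ratio of 1.29 ± 0.00992 with a range of 1.28 to 1.30. Shared regions alone gave 37.4 against 28.2 per Mb.

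On the log2 scale the density difference was 0.37 ± 0.01 (SD, n = 4), higher in 4 of 4 replicates. A two-sided exact sign-flip permutation test gave p = 0.13 (adjusted p = 0.143 by Benjamini-Hochberg over the 8 measures compared). That is the smallest p that 4 replicates can give, so no measure here could reach 0.05, and each difference is therefore read against the spread between replicates. For signal, width, GC, strings and open promoters every replicate was read at the same 7646 and 16875 shared regions. For these the SD and the count of replicates describe repeated readings of the same places, not the spread of a difference between sets of regions. The difference was 0.37 in replicates 1 and 2 and 0.36 in replicates 3 and 4, which carry the other tag.

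The surplus belonged to intron 1 and, to a smaller degree, intron 2. By intron number the density was 47.2 ± 0.369 regions per Mb in intron 1, 39.9 ± 0.334 in intron 2, 35.5 ± 0.501 in intron 3, 36.5 ± 0.190 in intron 4 and 35.6 ± 0.580 in introns 5 and beyond (SD, n = 4). Intron 2 lay above every later number in all 4 replicates, whereas introns 3 and 5 or more differed by less than their spread. The strength of the regions ran the other way, with a mean signal percentile of 42.5 ± 0.321 in intron 1, 45.3 ± 0.331 in intron 2 and 48.2 ± 0.313 in introns 5 and beyond.

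**Figure D1:**
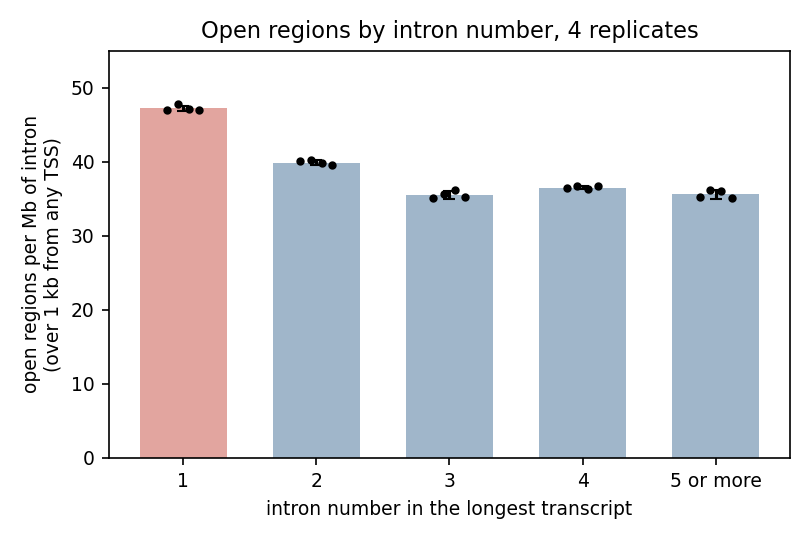
Open regions per Mb of intron sequence over 1 kb from any TSS (y axis) by the number of the intron in the longest transcript (x axis). Bars are means over 4 replicates, error bars the SD and points single replicates; intron 1 (47.0 to 47.8) lies above intron 2 (39.5 to 40.2), and both lie above introns 3, 4 and 5 or more (35.1 to 36.7).

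First introns lie closer to the gene's start than later ones, and the surplus depended on that distance. The midpoints of members lay a median of 15651 bp from the TSS of the host transcript, against 49723 bp for later-intron regions. At 2 to 5 kb from that TSS first introns had 44.2 ± 0.610 regions per Mb against 30.5 ± 0.512, a ratio of 1.45 ± 0.0225 (SD, n = 4). The ratio was 1.14 ± 0.0639 at 1 to 2 kb, 1.25 ± 0.0191 at 5 to 10 kb, 1.18 ± 0.0136 at 10 to 20 kb and 1.04 ± 0.0127 at 20 to 50 kb. In these 5 bins the ratio was above 1 in every replicate.

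Farther out the order turned. At 50 to 100 kb first introns had fewer regions per Mb than later introns, 35.0 ± 0.506 against 44.8 ± 0.681, a ratio of 0.783 ± 0.0171. Beyond 100 kb the ratio was 0.948 ± 0.00892. That last bin holds Gm20388, a gene model whose intron 1 spans 4384 kb and the starts of 67 other protein-coding genes. Without the 377 genes whose intron 1 holds another gene's start, the ratio beyond 100 kb was 0.647 ± 0.00946, while it was 0.788 at 50 to 100 kb and 1.04 at 20 to 50 kb. With the 6 bins from 1 to 100 kb given equal weight, the log2 difference was 0.16 in place of 0.37.

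**Figure D2:**
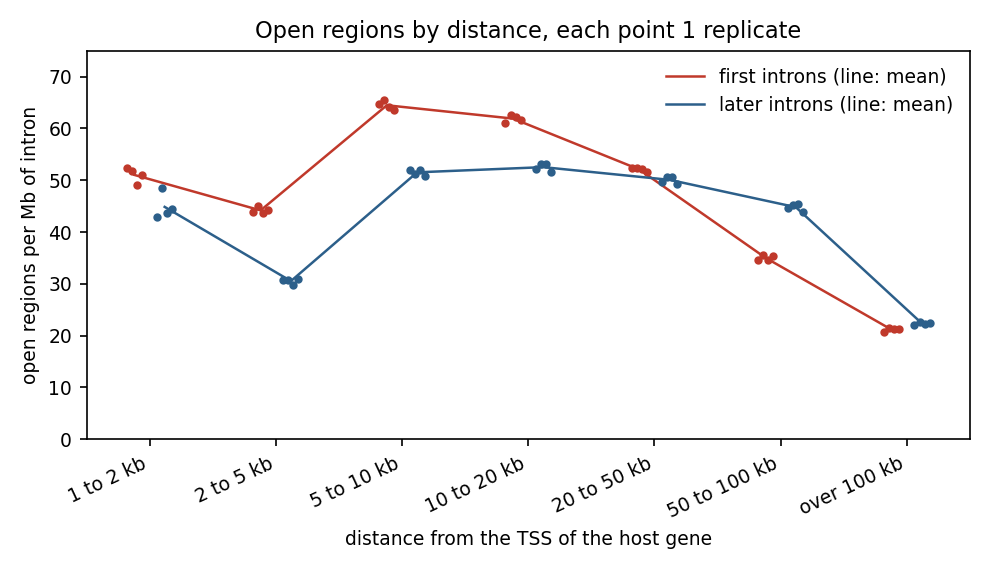
Open regions per Mb of intron sequence (y axis) by distance from the TSS of the host gene (x axis, bins), for first introns (red) and later introns (blue). Each point is 1 of 4 replicates and the lines join the means: first introns lie higher from 2 to 50 kb and lower from 50 to 100 kb (35.0 against 44.8), and the last bin includes the Gm20388 model.

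The ratio also varied with the length of the intron. Length was not crossed with distance from the TSS, so their parts cannot be told apart here. In introns under 5 kb the density was 46.0 ± 0.708 regions per Mb in first introns and 46.6 ± 0.676 in later ones, a ratio of 0.987 ± 0.0187 (SD, n = 4) that differed from 1 by less than its SD. In introns of 5 to 20 kb the ratio was 1.40 ± 0.0104, in those of 20 to 50 kb it was 1.73 ± 0.0232, and in those of 50 kb or more 1.61 ± 0.0109. First introns of 20 to 50 kb were the densest, at 65.7 ± 0.940 regions per Mb, and held 2587 of the 7646 members.

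Within the intron, members were thinnest toward the 5′ end. With each intron cut into 4 equal parts from that end, the parts held 32.5, 37.2, 39.4 and 39.8 members per Mb of eligible sequence in that order, with 19.2% of the members in the first part and 27.0% in the last. Later-intron regions varied less, with 27.3, 28.8, 28.8 and 27.7 per Mb. These are counts of shared regions, so they have no spread over replicates and were not tested.

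First-intron regions were weaker than later-intron regions. Signal is the fold enrichment of a peak over background from the authors' peak caller, and it was ranked within each replicate as a percentile among the 68680 shared regions. The mean percentile of the members was 42.8, 42.8, 42.2 and 42.3 in replicates 1 to 4, and that of later-intron regions 47.5, 47.7, 47.0 and 47.3. The classes did not overlap, and the difference was -4.83 ± 0.126 percentile points (SD, n = 4), lower in 4 of 4 replicates (exact sign-flip permutation p = 0.13, two-sided). It was -4.76 in replicates 1 and 2 and -4.89 in replicates 3 and 4. Members were more often found at the weak end of the range: 14.3% ± 0.332 of them were in the lowest 10% of shared regions and 5.76% ± 0.0773 in the highest 10%, against 9.79% ± 0.204 and 7.85% ± 0.0871 of later-intron regions.

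Much of that gap went with distance from the start. In first introns the mean percentile was 30.6 ± 0.527 at 1 to 2 kb and 30.6 ± 0.807 at 2 to 5 kb, then 41.7 ± 0.425 at 5 to 10 kb, 44.2 ± 0.205 at 10 to 20 kb and 46.5 ± 0.219 at 20 to 50 kb. Later-intron regions had 36.1 ± 0.613 at 2 to 5 kb and 47.2 ± 0.279 at 20 to 50 kb. With equal weight on the 6 bins the difference was -1.56 percentile points, and without the 1 to 2 kb bin -2.19 points. Beyond 100 kb, outside these bins, members had 47.0 ± 0.404 against 49.9 ± 0.297. Without genes whose intron 1 holds another gene's start, that order was reversed, 51.3 ± 0.679 against 49.7 ± 0.289. At 1 to 2 kb the members were the stronger class, 30.6 against 29.0 ± 0.588, although later introns had only 85 regions there.

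Members spanned nearly the whole range of signal. Their mean percentile over replicates ran from 0.0499 to 99.8 with a median of 39.2, and the middle 50% lay between 19 and 64.5. The SD of a member's percentile over the 4 replicates had a median of 4.08 points. Summits of the 4 replicates lay within 100 bp of each other in 81.9% of the members, against 82.6% of later-intron regions and 79.9% of all shared regions, with a median range of 41.0 bp. Of each replicate's own first-intron regions, 81.4% ± 0.570 fell in shared regions against 78.4% ± 0.912 for later introns, a difference of 3.00 ± 0.549 percentage points (SD, n = 4) in 4 of 4 replicates.

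Members were slightly wider, and over all distances slightly richer in G and C. The median width was 668 ± 21.2 bp in first introns and 646 ± 20.9 bp in later introns (SD, n = 4). Widths varied more between replicates than between classes, from 648 to 692 bp for members, yet the paired difference was 21.8 ± 1.26 bp and positive in 4 of 4. GC content in the 100 bp on each side of the summit was 47.4% ± 0.0295 against 46.9% ± 0.0104, a difference of 0.438 ± 0.0221 percentage points. The eligible intron sequence as a whole held 42.7% GC in first introns and 42.1% in later ones. Within distance bins the order was the other way up to 50 kb, for example 48.1% ± 0.0216 in first and 49.7% ± 0.0763 in later introns at 2 to 5 kb. With equal weight on the 6 bins the GC difference was -0.694 points, so its direction depended on distance. Regions within 1 kb of a TSS, at 60.7% ± 0.0728 GC and 1195 ± 39.2 bp, were unlike both intron classes.

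The 1 kb limit cut through a gradient. The 251 first-intron regions 751 to 1000 bp from a TSS, which were left out, had a mean percentile of 41.5 ± 0.332, a median width of 1010 ± 53.1 bp and 56.0% ± 0.302 GC. The 209 members at 1001 to 1250 bp had 37.9 ± 0.313, 702 ± 25.7 bp and 49.9% ± 0.210.

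Transcription factor strings were searched on both strands within 50 bp of each replicate's summit. The 17 strings were TGANTCA for AP-1 (the Jun, Fos and BATF dimers), TGTGGTT for RUNX, ACAGGAAG for ETS, GGGANTTCC for NF-kB, TGGAAAA for NFAT, TTCNNNGAA for STAT, ANTAGGTCA for ROR, TTCAAAG for TCF/LEF, CAGGTG for the E-box, AGATAAG for GATA, AGGTGTGA for T-box, CCCCGCCC for KLF/SP, GCCAAT for NFY, GCGCNTGCG for NRF1 and CAAAGTCCA for HNF4. An AP-1/IRF composite, which contains the AP-1 string, and a CTCF consensus were searched as well. As background each share was also counted in windows centred 200 bp on each side of the summit and for the reversed string at the summit.

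CTCF, a zinc-finger protein that bounds chromatin loops, had fewer matches in first introns. Its consensus was found at 1.44%, 1.53%, 1.48% and 1.49% of member summits in replicates 1 to 4, and at 3.64%, 3.67%, 3.71% and 3.69% of later-intron summits. The classes did not overlap: the means were 1.48% ± 0.0378 and 3.68% ± 0.0304 (SD, n = 4), a difference of -2.19 ± 0.0366 percentage points and a ratio of 0.404 ± 0.00932 (exact sign-flip permutation p = 0.13, two-sided). Within the KS134 and KS136 pairs the difference was -2.17 and -2.22. Of all shared regions 3.10% ± 0.0279 held a match, and of regions within 1 kb of a TSS 1.63% ± 0.0377. The flanking windows held 0.0866% ± 0.0216 in first introns and the reversed consensus was found at no summit.

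The CTCF share was lower in each distance bin up to 100 kb. At 1 to 2 kb it was 0.598% ± 0.255 against 3.53% ± 0.961, at 5 to 10 kb 1.18% ± 0.0657 against 5.02% ± 0.334, and at 20 to 50 kb 1.32% ± 0.0261 against 3.8% ± 0.0311. Beyond 100 kb the shares were 2.64% ± 0.278 and 2.90% ± 0.0520, a gap within the spread. Without genes whose intron 1 holds another gene's start, that bin had 1.43% ± 0.183 against 2.96% ± 0.0495. Members with a CTCF match in all 4 replicates numbered 91, and members with a match had a mean signal percentile of 42.6 ± 0.921 against 42.5 ± 0.332 for those without.

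AP-1 matches were the most frequent of the 17 and were found at nearly the same share in both classes. They were found at 26.6%, 27.4%, 27.3% and 27.3% of member summits in replicates 1 to 4, and at 26.7%, 26.9%, 26.8% and 26.7% of later-intron summits. Replicate 1 was the lowest among first introns and the only one in which they did not exceed later introns. The difference was 0.377 ± 0.290 percentage points (SD, n = 4; exact sign-flip permutation p = 0.250, two-sided), and with a window of 100 bp it was -0.125, so pooled over distance no difference was resolved. By distance, first introns had the higher share up to 50 kb: 24.8% ± 0.255 against 14.1% ± 2.54 at 1 to 2 kb, where later introns had only 85 regions, 28.1% ± 1.16 against 24.4% ± 0.609 at 2 to 5 kb, 27.5% ± 0.777 against 23.6% ± 0.486 at 5 to 10 kb, and 28.1% ± 0.345 against 26.2% ± 0.259 at 20 to 50 kb. Beyond 100 kb the order was the other way, 25.8% ± 0.214 against 29.0% ± 0.385. With equal weight on the 6 bins the difference was 3.48 points, and without the 1 to 2 kb bin 2.05 points.

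AP-1 matches were concentrated at the summits of members and went with stronger signal. The share at the summit was 7.85 ± 0.0909 times that in the flanking windows, where it was 3.46% ± 0.0284, while the reversed string reached 1.88 ± 0.0484. In later introns these ratios were 7.19 ± 0.0894 and 1.99 ± 0.0657, so the concentration was not particular to members. Of all shared regions 21.6% ± 0.119 held a match, and of regions near a TSS 7.99% ± 0.121. Members with a match had a mean signal percentile of 49.6 ± 1.00 against 39.9 ± 0.124 for those without, and 1484 members (19.4%) had one in all 4 replicates. The composite, to which BATF and IRF4 bind together in T cells, was found at 0.428% ± 0.0223 of member summits and 0.510% ± 0.00838 of later-intron summits, lower in 4 of 4 replicates.

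Of the other strings, those of ETS, KLF/SP, NRF1 and NF-kB, the last described further on, were more frequent in first introns in every replicate. The ETS string was found at 3.62% ± 0.12 of member summits against 3.07% ± 0.0528 (SD, n = 4), higher in 4 of 4 replicates, and over all shared regions the share was 2.73% ± 0.0123. The reversed ETS string also differed, by a ratio of 1.29 ± 0.190 against 1.18 ± 0.0405 for the string itself. KLF/SP, a GC-rich promoter string, was found at 0.942% ± 0.0937 against 0.727% ± 0.0170, and NRF1, another promoter string, at 0.137% ± 0.00755 against 0.0593% ± 0.0145, both higher in 4 of 4. The KLF/SP ratio was 1.29 ± 0.130, no larger than the 1.34 ± 0.0833 of its reversed string. The NRF1 ratio was 2.43 ± 0.608, from a string found at very few summits, against 1.05 ± 0.211 for its reversed string. Among regions near a TSS the KLF/SP and NRF1 strings reached 10.2% ± 0.104 and 3.59% ± 0.105.

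NFAT, the factor switched on by calcium after receptor stimulation, had its string at 2.57% ± 0.222 of member summits against 2.93% ± 0.0714, lower in 4 of 4 replicates. At members it was no more frequent at the summit than in the flanks, with a ratio of 0.939 ± 0.0727, against 1.07 ± 0.0266 in later introns. RUNX strings were found at 6.06% ± 0.148 against 6.25% ± 0.0898, which was 2.25 ± 0.0577 times the flanks in members and 2.21 ± 0.0776 times in later introns. The ROR string was found at 0.569% ± 0.0407 against 0.513% ± 0.0354, a gap within the spread. It reached 2.71 ± 0.287 times the flanks in members and 1.96 ± 0.159 times in later introns. Over all shared regions the shares were 2.48% for NFAT, 5.14% for RUNX and 0.430% for ROR.

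Of the remaining strings, NF-kB was found at 0.942% ± 0.0465 of member summits against 0.892% ± 0.0292, STAT at 3.75% ± 0.163 against 3.82% ± 0.156, and T-box at 0.634% ± 0.0392 against 0.587% ± 0.0430. TCF/LEF was found at 2.56% ± 0.0169 against 2.70% ± 0.0904, the E-box at 6.27% ± 0.115 against 6.55% ± 0.226, and NFY at 2.62% ± 0.0795 against 2.64% ± 0.0680. GATA and HNF4, whose factors mark Th2 and liver cells, were at 0.690% ± 0.0494 against 0.787% ± 0.0347 and 0.0719% ± 0.0227 against 0.0904% ± 0.0112. The widest gap among these 8 was -0.274 percentage points, for the E-box. Over all shared regions the shares were 0.935% for NF-kB, 3.47% for STAT, 0.455% for T-box, 2.38% for TCF/LEF, 6.49% for the E-box, 4.36% for NFY, 0.719% for GATA, 0.0797% for HNF4, 3.29% for KLF/SP, 1.05% for NRF1 and 0.400% for the composite.

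**Figure D3:**
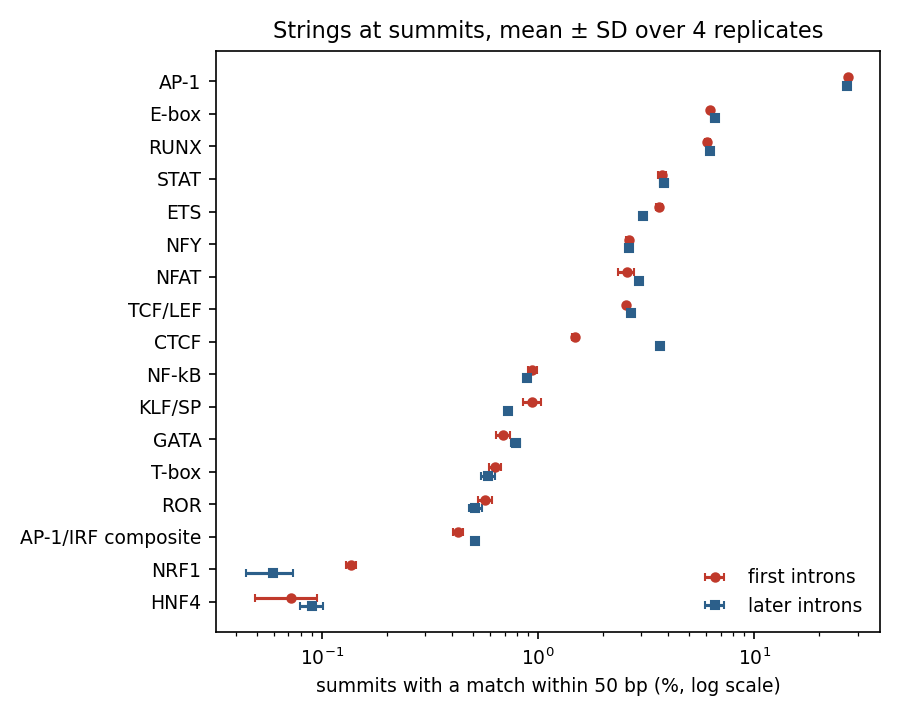
Share of summits with a match to each of the 17 strings within 50 bp (x axis, percent, log scale), for first-intron (red circles) and later-intron regions (blue squares). Points are means and bars the SD over 4 replicates; CTCF (1.48% against 3.68%) and NRF1 (0.137% against 0.0593%) differ most on this scale, in opposite directions, while AP-1 is the most frequent in both classes at 27.2% and 26.8%.

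First-intron regions were held by a minority of genes. Of 21670 protein-coding genes with a protein-coding transcript, 20233 had an intron 1 and 14217 had first-intron sequence over 1 kb from any TSS. Of these 14217 genes, 3454 (24.3%) had at least 1 member, and this share is the background for the gene lists below. It was higher where intron 1 was longer, at 4.84% under 5 kb, 30.5% at 5 to 20 kb, 63.4% at 20 to 50 kb and 58.5% at 50 kb or more. Genes with a member had a median of 17272 bp of eligible first-intron sequence and genes without one 2541 bp.

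Most host genes had few regions. A single member was found in 1877 genes, 5 or more in 308 and 10 or more in 64. The 308 genes together held 34.0% of the members, counted per gene. In 1384 host genes (40.1%) no later intron held a shared region over 1 kb from a TSS. The same share was not taken over genes without a member, so this count does not set host genes apart. Some host genes, such as Bcl2, had no eligible later-intron sequence.

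Host genes had open promoters more often than other genes. The promoter, taken as 1 kb on each side of any annotated TSS of the gene, held a region in all 4 replicates in 3110 of the 3454 genes with a member and in 6587 (61.2%) of the 10763 without. The gap was present at every intron 1 length: 80.7% against 59.3% under 5 kb, 89.3% against 67.8% at 5 to 20 kb, 94.0% against 59.6% at 20 to 50 kb and 89.4% against 40.4% at 50 kb or more. Counted over regions, 94.6% ± 0.194 of members lay in a gene with an open promoter against 92.9% ± 0.305 of later-intron regions, a difference of 1.69 ± 0.184 percentage points (SD, n = 4) in 4 of 4 replicates. With the longest transcript taken by genomic span it was 0.936 points, and with equal weight on the 6 distance bins 6.39.

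A small set of 248 of the 3454 host genes had members and no promoter region in any replicate. The same count was not taken over genes without a member. Per replicate a promoter region was found in 91.5% ± 0.257 of host genes and 63.2% ± 0.396 of genes without a member (SD, n = 4), so host genes lacked one less often. The first by number of members was Ninj2, a cell adhesion gene, with 14 in 99550 bp of eligible sequence. It was followed by Arhgap26, a GTPase regulator gene, with 11, and the gene model Gm42906 with 7. Lipc, the hepatic lipase gene, had 6. Itgae, which encodes the CD103 integrin of Treg and tissue-resident T cells, belonged to this set with 3.

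The genes with the most members were mostly those with very long first introns. Gm20388 came first with 228, in an intron at chr8:119910940-124295357 that holds 67 other gene starts, so its members may belong to those genes as well. Rora, which encodes a nuclear receptor that acts in Th17 cells, followed with 33 in 538 kb of eligible sequence. Then came Maml2, a coactivator of Notch, with 32, and Ext1, an enzyme of heparan sulfate synthesis, with 30. Cmss1 had 23, Bcl2, the anti-apoptotic gene, and Dip2c had 22 each, and Abtb2, the Notch coactivator gene Maml3 and Tox, a regulator of T-cell development, had 21 each. In their later introns Ext1 had 3 shared regions, Gm20388 had 2 and Cmss1 had 1, while Bcl2 had no eligible later-intron sequence.

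Per base the order was different. Over all genes pooled there were 3.69 members per 100 kb of eligible first intron. Among genes with at least 5 members, Sh3gl1, an endophilin gene, had 39 per 100 kb and Fam169b 37.2. Gng2, a G-protein subunit gene, had 33.3 and Nfkb1, which encodes the p105 and p50 subunits of NF-kB, had 29.7 with 6 members. Rap1b, a small GTPase gene, had 29.5, and Il6ra, which encodes the receptor for the Th17-inducing cytokine IL-6, 28.0. Ets1, a T-cell transcription factor gene, had 27.3, Vps37b of the endosomal sorting machinery 27.0, and Cltc, the clathrin heavy chain gene, 26.0. These genes were ranked by that value, so it is a description.

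None of the 10 strongest members lay in a gene of the 15 lists of T-cell and other cell-type genes. A member in Il12rb2, of the Th1 list, came close, with a mean percentile of 99.4 ± 0.205 (SD, n = 4). The first of the 10 by mean percentile was in Stam, an endosomal adaptor gene, at chr2:14088206-14089114 and 14562 bp from the TSS. Its deposited signal was 20.8, 19.3, 18.8 and 19 in replicates 1 to 4, all near the top of their lists, for a mean percentile of 99.8 ± 0.159 (SD, n = 4). The second was in Ncald, a neuronal calcium sensor gene, with signals of 19.1, 21.3, 17.6 and 19.5. The others of the first 10 were in 4930562C15Rik, 1700011L22Rik, Ccdc148, which had 2, Gm17655, Nav2, Nln and Kdm7a, with mean percentiles of 99.5 to 99.7. Of these 10 members, 3 had an AP-1 match in all 4 replicates, as did 19.4% of all members. None had a CTCF match, which 1.19% of all members had in all 4 replicates. Counts this small were not tested.

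Genes of T-cell identity held first-intron regions more often than genes with introns of like length. In the list of T-cell identity and receptor genes, 15 of 20 had eligible first-intron sequence and 13 of these (86.7%) had a member, against 39.8% for all genes with the same mix of intron lengths. The 13 genes held 51 members, or 16.1 per 100 kb against 3.69 over all genes. Unlike the share of genes, this per-base value was not matched for intron length, here or in the lists below. The list, like the others, was chosen with earlier results of these data known, so the counts are a description and have no test.

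Among the signalling genes of the T-cell receptor, Cd247, which encodes the zeta chain, had 12 members, the most of the list. The kinase genes Prkcq, Fyn and Zap70 had 6, 3 and 1, and the adaptor gene Lcp2 had 1. Of the other surface receptors, Cd28, the costimulatory receptor, and Cd6 had 3 each, Cd4 had 2 and Cd3g 1. Themis, needed for thymocyte selection, had 4. The transcription factor genes Ets1 and Bcl11b had 8 and 2. Cd3d and Cd5 had eligible sequence and no member, while Cd3e, Cd2, Lck, Lat and Tcf7 had no first-intron sequence over 1 kb from a TSS.

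The Cd4 regions lay 2848 and 4536 bp from the TSS by their summits. The first, at chr6:124884917-124886642, had a signal of 5.76, 5.46, 5.64 and 5.30 in replicates 1 to 4, and its summit positions agreed within 2.00 bp. The second, at chr6:124883412-124884216, had 5.07, 5.03, 4.39 and 4.46 and an AP-1 match in all 4. Both were weaker than the average member, with mean percentiles of 32.9 ± 2.96 and 24.0 ± 3.25 (SD, n = 4).

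The members of Ets1 show how unequal regions of 1 intron can be. The strongest of its 8, at chr9:32709526-32710626, had a signal of 7.41, 7.64, 7.19 and 7.44 and a mean percentile of 50.9 ± 0.579. The weakest, at chr9:32711855-32712635 and about 2 kb away, had 1.61, 1.58, 1.73 and 1.91 and a percentile of 0.130 ± 0.137. All 4 replicates kept these apart, and both summits had an AP-1 match, in 4 and 3 replicates.

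**Figure D4:**
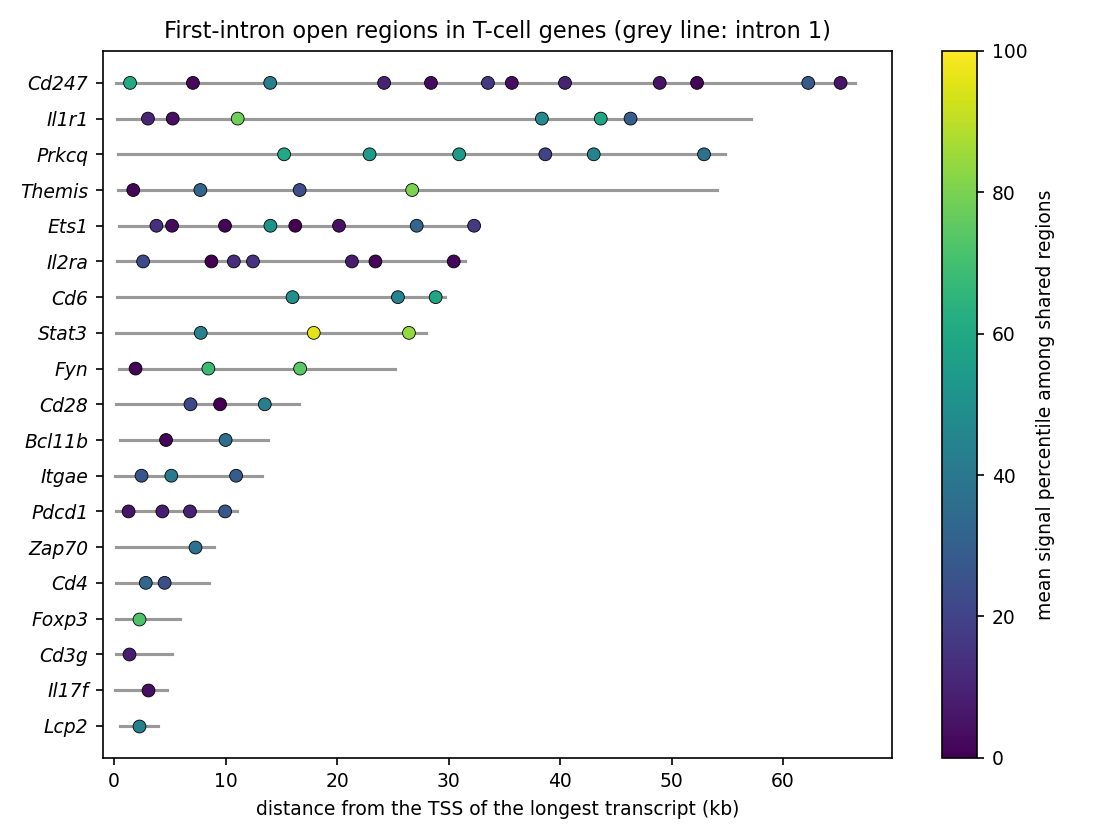
First-intron open regions (circles, placed at their mean summit) along intron 1 (grey lines) of genes from the Th17 and T-cell identity lists that have a member and are named here, without Rora, and of Foxp3, Il2ra, Itgae and Pdcd1; the x axis is the distance from the TSS of the longest transcript in kb. Colour is the mean signal percentile over 4 replicates: the strongest is in Stat3 at 95.6, while the 12 regions of Cd247 range from 0.807 to 60.5.

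In the Th17 programme 5 of 11 genes with eligible sequence had a member (45.5% against 24.6% for genes of like intron length). These 5 genes held 45 members, of which Rora alone had 33, so the list had 7.08 per 100 kb. Il1r1, the receptor for the Th17-promoting cytokine IL-1, had 6, and Stat3, which relays IL-6 and IL-23 signals, had 3. The cytokine gene Il17f had 1. No member was found in Il17a, Il23r, Batf, Irf4, Ahr and Ccl20, most of which had little room for one: 190 bp of eligible sequence in Il17a, 85 bp in Il23r, 240 bp in Irf4, 622 bp in Batf and 5 bp in Ccl20, against 5641 bp in Ahr. Il21, Il22 and Ccr6 had no eligible sequence, and Maf had no intron 1 in the annotation used.

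Genes without a first-intron region could still be open elsewhere. The later introns of Il23r held 10 shared regions, those of Batf 3, and those of Irf4 and Ahr 2 each. Those of Il17a and Ccl20, of 1314 and 88 bp, held none. Conversely, Il1r1 had none in 29433 bp of later introns beside its 6 in intron 1. Rora had 18 in later introns.

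Stat3 held the strongest member of the list. That region, at chr11:100920999-100922004 and 17911 bp from the TSS by its summit, had a signal of 16.2, 16.4, 15.2 and 15 in replicates 1 to 4 and a mean percentile of 95.6 ± 0.694 (SD, n = 4). A second Stat3 member at chr11:100912547-100913461 had 12.8, 13.5, 12.3 and 11.8 and a percentile of 83.9 ± 2.00. The third was weaker, at 44.3 ± 3.45.

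The strongest Rora member lay 412264 bp into the gene, at chr9:69065618-69066592, with a signal of 13.8, 13.9, 13.4 and 13.8 and a mean percentile of 89.0 ± 1.47. It carried the 2 RUNX matches shown above, at least 1 of them within 50 bp of the summit in all 4 replicates. Other Rora members were less even: the one at chr9:69002498-69003208 had 6.67 in replicate 1 and 10.2, 10.4 and 10.1 in the others. Il1r1 ranged from a percentile of 3.56 ± 1.64 to 78.2 ± 2.62, the highest being at chr1:40235282-40236723 with a signal of 12.2, 11.3, 11.1 and 11.2.

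The member of Il17f was weak. The region, at chr1:20780572-20782027, had a signal of 2.88, 2.96, 2.60 and 2.53 and a mean percentile of 3.71 ± 1.13.

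Genes of other helper programmes held members as well. In the Treg programme 4 of 9 genes with eligible sequence had one (44.4% against 23.0% for like intron lengths). The Foxp3 region, at chrX:7581444-7582417 and 2202 bp from the TSS of the transcript used, had a signal of 9.20, 12.3, 9.99 and 10.1 and a mean percentile of 71.8 ± 6.54, highest in replicate 2. No list had a region at the start of that transcript, and the promoter region counted for Foxp3 lay at an annotated start farther upstream. Il2ra, which encodes the high-affinity IL-2 receptor chain, had 7 members, none above a percentile of 22.0.

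Itgae had 3 members and no promoter region. The strongest, at chr11:73094626-73095883, had a signal of 6.86, 6.82, 5.51 and 6.17, with an AP-1 match and a RUNX match in 3 replicates each. Its later introns held another 5 shared regions. Entpd1, which encodes the ectonucleotidase CD39, had 2.

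In the follicular helper (Tfh) programme 7 of 10 genes had a member (70.0% against 37.3%). Tox had the most, 21, with percentiles from 9.43 ± 7.39 to 91.4 ± 2.18. The strongest, at chr4:6924546-6925456, had a signal of 15, 14.8, 14.3 and 13.3 and a RUNX match in all 4 replicates. Pdcd1, the gene of the inhibitory receptor PD-1, had 4 in 10037 bp. In the Th1 programme 5 of 10 genes had one (18.4% for like intron lengths), with 2 each in Tbx21, the Th1 master regulator gene, and Runx3. In the Th2 programme it was 3 of 11 (27.3% against 11.8%), with 2 in Il4ra, the IL-4 receptor gene.

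Genes of naive or memory T cells and of cytokine input were the other lists rich in members. Of the naive or memory genes 7 of 8 had one (87.5% against 42.8% for like intron lengths), with 20 in Foxp1, a quiescence factor gene, and 17.1 per 100 kb over the list. Of the cytokine input genes 7 of 10 had one (70.0% against 40.8%), with 15 in Smad3, which relays TGF-β signals, and 13.6 per 100 kb.

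Lists of other cell types did not all lie on the same side of the background. Of the B-cell genes 1 of 9 had a member (11.1% against 29.3%), in Fcer2a, and the list had 1.04 members per 100 kb against 3.69 over all genes. Of the neuron genes it was 2 of 10 (32.4% for like intron lengths), Cntnap2 and Syn1, with 0.264 per 100 kb. That value rests mainly on Cntnap2, which had 1 member in 568920 bp of eligible sequence. The myeloid list lay above its background, with 1 of 6 genes (16.7% against 4.84%) and 12.3 per 100 kb. That member was in Csf1r, the receptor of macrophage growth factor, whose promoter had no region in any replicate.

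The remaining lists had shares near their background. None of the 7 eligible genes in each of the CD8 or NK, hepatocyte and muscle lists had a member, where 4.84%, 12.2% and 8.51% of genes of like intron length did. Of the housekeeping genes 1 of 8 had one (12.5% against 14.5%), in Polr2a.

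**Figure D5:**
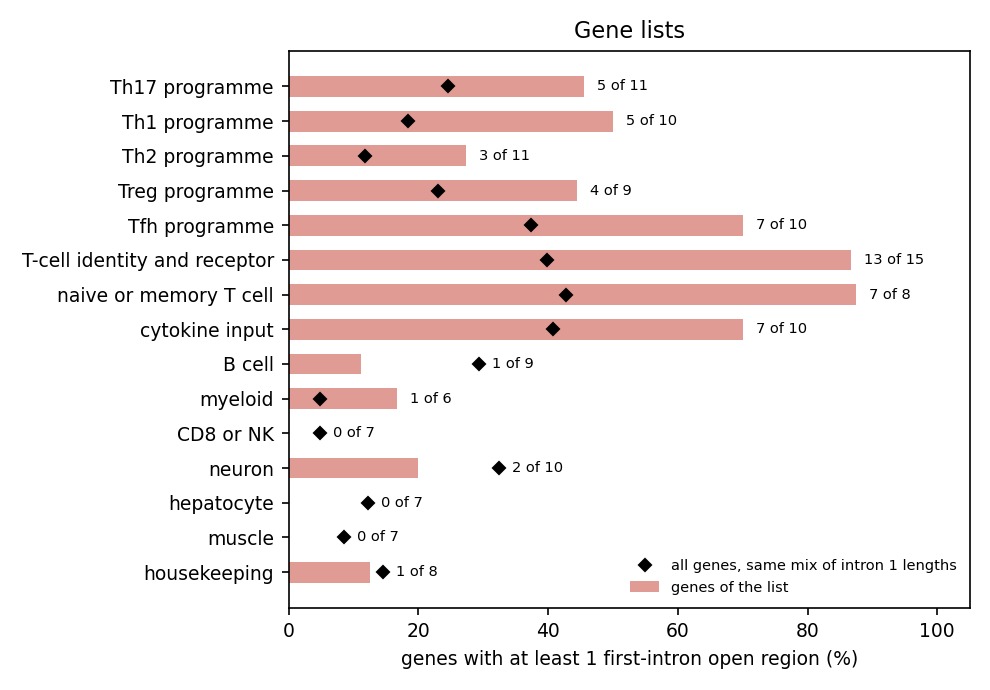
Percent of genes with at least 1 first-intron open region (x axis, bars) in 15 gene lists (y axis), among genes with eligible first-intron sequence, with the counts beside the bars. Diamonds give the percent for all genes with the same mix of intron 1 lengths: the 8 lists of T-cell programmes, identity and cytokine input (86.7% against 39.8% for T-cell identity) and the myeloid list (16.7% against 4.84%) lie above their diamonds, the other 6 lists below.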

How the data were processed

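Peaks were called separately for each of 4 replicates on mm10, per the labels' file notes; which aligner and peak caller made them is not given in the sources used here. A line of the deposited narrowPeak lists gives a region, a summit offset in bp, a display score (a score by the authors, not used), a signal that is the authors' ratio (fold) of the peak over background, and the authors' deposited −log10 p and −log10 q values. Signal is not normalised between replicates, so it was ranked within each. Python 3.11.15, numpy 2.4.6, pandas 2.3.3, pysam 0.24.0 and matplotlib 3.10.9 were used.

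Regions on chromosomes 1 to 19 and X were merged; a mean of 103 per replicate on other sequences was left out. The longest transcript was that with the largest summed exon length. A base in intron 1 of any gene counted as first, whatever other genes held, and the gene with the nearest TSS was the host. Density used each replicate's own midpoints; signal, width, GC and strings used its strongest region in each shared region. Tests are two-sided exact sign-flip permutation tests over the 4 replicates, and scripts were tested on simulated data. The replicates share the same regions for signal, width, GC, strings and open promoters, and mostly the same ones for the other measures. Members, gene lists (15, with 203 entries) and strings were chosen with earlier results of these data known. Named genes are all of the Th17 and T-cell identity lists, the leading gene of each other list, the 10 with the most members, the 10 densest with at least 5, hosts of the 10 strongest members and hosts of the printed sequences; others named (such as Ninj2, Itgae, Pdcd1 and Entpd1) were chosen after their values were seen. Some genes that the rule names are not reported here. Alternatives were another longest transcript, TSS set, TSS distance, class rule, −log10 q, number of replicates, window and distance weighting, and leaving out each replicate; leaving out genes whose intron 1 holds another gene's start, distance weighting beyond density, signal, AP-1 and CTCF, and weighting from 2 kb were chosen after seeing the data.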

Additional observations from a re-analysis of the deposited data

Results flagged for a closer look

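Of 24 quantities checked for a replicate far from the other 3, 2 stood apart, and chance gives about 1 in 20. The AP-1 difference between first and later introns was -0.0574 percentage points in replicate 1 against 0.493 to 0.542 in the others. The log2 density of first-intron regions was 5.58 in replicate 2 against 5.55 to 5.56 in the others, which was small beside the difference between the intron classes.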

How the results depend on the processing

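The differences in density, signal percentile, CTCF share, width, share of regions in shared regions and open promoters kept their direction under every alternative run for them. The GC difference turned from 0.438 to -0.694 points with equal weight on distance bins and to -0.595 with the bins from 2 kb, both chosen after seeing the data, as was equal weight for width, shared regions and promoters. The AP-1 difference turned from 0.377 to -0.125 percentage points with a match within 100 bp, and kept its direction under the other 14. Since no sign-flip p can pass 0.05, agreement of direction is all that these comparisons show. Leaving out each replicate gave log2 density differences of 0.37 to 0.37, percentile differences of -4.84 to -4.38, CTCF differences of -2.22 to -2.14 and AP-1 differences of 0.279 to 0.521. Over all alternatives the log2 density difference ran from 0.16, with equal weight on distance bins, to 0.43, with −log10 q of at least 10, and the percentile difference from -6.64, with that −log10 q, to -1.56, with equal weight. The CTCF difference ran from -2.74 to -1.88 and the promoter difference from 0.936, with the longest transcript by genomic span, to 6.39, with equal weight. Members numbered 6237 to 8719, host genes 3005 to 3729, and Th17 genes with a member 4 to 6. Without genes whose intron 1 holds another gene's start there were 7204 members in 3329 genes. No paired analysis was possible because the series holds 1 group, so no samples can be paired across groups; each difference between intron classes is taken within a replicate. Depth is unknown, so the absence of a region says only that no peak was listed.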
